A study of Mus musculus with 4 samples.

Results

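The genes described here are 10 receptor tyrosine kinases of liver and tumours: Egfr, Erbb2, Erbb3, Met, Axl, Pdgfra, Pdgfrb, Fgfr1, Fgfr2 and Epha2. They were listed by name with earlier results of these data known, with no threshold on a measured value, and all 10 were found by symbol among the 25793 symbols listed. RNA was sequenced from 4 mouse liver libraries. Of these, 2 are labelled as liver tumours of mice with genotype beta-2SP+/- ; SMAD3+/- (tumours 1 and 2), which carry a single working copy of beta-2 spectrin and of Smad3. Another is labelled normal liver of the same genotype, and the last is from normal liver of wild type. The heterozygous genotype is thus shared by both tumours and by 1 of the normal libraries. The labels give no age, sex, treatment or number of animals. The short sample descriptions name Elf (tumour 1) or Smad (tumour 2) together with Tcell for the tumours, and hepatocytes for both normal libraries. The groups used here follow the genotype and disease labels.

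Receptor tyrosine kinases are membrane proteins that bind a growth factor outside the cell and, once paired, phosphorylate each other and recruit adaptor proteins that start the RAS-MAPK and PI3K cascades. In adult liver, hepatocytes are known for EGFR, ERBB3 and MET, which serve growth and regeneration. The PDGF receptors are classical receptors of stellate cells and fibroblasts, and AXL, EPHA2 and ERBB2 are often studied in tumours. ERBB3 has little kinase activity of its own and signals through partners such as ERBB2 or EGFR, so the ERBB family works as pairs.

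Gene counts per library ran from 11049931 to 18448621. The normal tables are not independent libraries as far as their counts show: where the mean count of a gene was 1 to 5 (2632 genes), 56.8% of genes had the identical count in the normal tables. Given each gene's total, separate libraries of these depths would give 29.3%, and the tumours gave 13.1%. Their rounded mean was used as 1 normal library. No label ties the tumours to separate animals, so p-values measure only the spread between these samples. In markers of cell types, the summed level of 6 hepatocyte genes was 167 and 158 CPM in tumours 1 and 2 against 169813 CPM in normal liver, with Hnf4a at 156 and 107 CPM supplying most of it. Apart from Hnf4a, the defining transcripts of the labelled tissue were thus nearly absent from the tumour libraries. Of 7 T cell genes, 6 had 0 counts in both tumours, among them Cd3e, Cd4 and Cd8a, and Lck had 9 and 11 counts. CPM here is the count divided by the TMM-scaled library size and set to the usual unit. TMM scaling sets libraries to a common level through the bulk of their genes.

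Upstream sequence is shown for 4 of the 5 receptors for which both tumours lay on the same side of normal liver: Axl, Erbb2 and Epha2, all above it, and Egfr, below it. RefSeq promoter windows were found for 7 of the 10 receptors. Each line gives the 250 bases before the annotated start in GRCm38.p6, a later build than the mm9 of the counts, read along the gene. Capitals mark a match, on either strand, to any of 6 short motifs. The GC box of SP factors was searched as GGGCGG, and the AP-1 motif of FOS and JUN as TGANTCA. The motif of the Hippo pathway factors TEAD was searched as GGAATG, and the E-box of helix-loop-helix factors as CAGCTG. The SMAD box was searched as CAGAC and the TATA box as TATAAA.
Axl, chr7:25788734-25788983, minus strand: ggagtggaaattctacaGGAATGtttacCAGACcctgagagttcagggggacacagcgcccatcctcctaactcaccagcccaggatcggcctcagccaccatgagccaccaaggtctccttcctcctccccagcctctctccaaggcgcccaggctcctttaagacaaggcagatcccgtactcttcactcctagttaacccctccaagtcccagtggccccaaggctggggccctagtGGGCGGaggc
Erbb2, chr11:98412234-98412483, plus strand: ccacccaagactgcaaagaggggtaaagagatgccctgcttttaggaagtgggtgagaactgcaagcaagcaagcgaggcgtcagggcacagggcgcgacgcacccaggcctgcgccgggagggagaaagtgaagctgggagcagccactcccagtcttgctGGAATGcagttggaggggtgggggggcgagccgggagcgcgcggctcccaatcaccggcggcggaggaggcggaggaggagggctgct
Epha2, chr4:141300971-141301220, plus strand: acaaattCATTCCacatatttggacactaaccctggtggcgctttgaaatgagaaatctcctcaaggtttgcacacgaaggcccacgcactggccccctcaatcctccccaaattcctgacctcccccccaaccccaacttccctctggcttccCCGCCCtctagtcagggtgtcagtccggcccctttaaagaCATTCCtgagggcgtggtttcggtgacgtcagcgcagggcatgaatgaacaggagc
Egfr, chr11:16751953-16752202, plus strand: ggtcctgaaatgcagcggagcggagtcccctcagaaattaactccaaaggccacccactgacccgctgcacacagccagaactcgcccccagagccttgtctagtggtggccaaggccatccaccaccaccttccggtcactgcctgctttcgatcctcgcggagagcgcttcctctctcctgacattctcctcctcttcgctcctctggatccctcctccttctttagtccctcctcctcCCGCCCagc
The TEAD letters occurred once in the Axl window, once in that of Erbb2 and at 2 places in that of Epha2. The windows of Egfr, Met, Fgfr2 and Pdgfra did not hold them. Among all 32851 windows of this length 12.6% held these letters. A GC box stood in the Axl, Epha2 and Egfr windows and at 3 places in the Met window, against 32.7% of all windows. The AP-1 letters were found in the Met window alone among the 7, against 6.75% of all windows. The SMAD box letters, held by 42.2% of all windows, were in the Axl, Met and Pdgfra windows. A match is a description of the letters only.

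The receptors of the ERBB family moved in opposite directions between normal liver and the tumours. Egfr and Erbb3, both abundant in normal liver, fell, and Erbb2, nearly absent there, rose. Each of these changes was over 30-fold in each tumour. The background for such calls is that edgeR called 7.42% of the 14468 genes tested at an adjusted p under 0.05, 2.23% higher and 5.19% lower. All 10 receptors passed the filter on low counts, and 2 were called higher (Axl, Erbb2), 2 lower (Egfr, Erbb3) and 6 were not called.

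Egfr encodes the receptor for EGF, TGF-alpha and amphiregulin. It had 2028 and 1336 counts in tumours 1 and 2 and 35305 and 40788 in the normal tables (that of the double heterozygous mouse is given first throughout). On the CPM scale this was 137 and 71.7 in the tumours against 4170 in normal liver. Both tumours lay far below both normal tables. The level was 40.03-fold lower (log2 fold change -5.32, SE 0.86, edgeR adjusted p = 0.0435). The call missed the threshold when libraries were scaled by total count only (log2 fold change -3.96, adjusted p = 0.0508).

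Erbb3, the kinase-impaired receptor of neuregulins, had 102 and 242 counts in the tumours against 4134 and 5033 in the normal tables. Both tumours were low, at 6.87 and 13.0 CPM, and normal liver was at 502 CPM. It was 50.5-fold lower (log2 fold change -5.66, SE 0.69, edgeR adjusted p = 0.0278), with no overlap between groups. Beside these falls stand the hepatocyte markers given above, of which 5 of 6 fell and Hnf4a did not pass (log2 fold change -3.28, SE 0.65, edgeR adjusted p = 0.0621). In these bulk samples, fewer cells of a type and less RNA per cell cannot be told apart. The part of the hepatocyte transcripts in the Egfr and Erbb3 falls was not tested.

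Erbb2, the family member without a known ligand and the preferred partner of the others, went the other way. It had 954 and 1088 counts in tumours 1 and 2 and only 16 and 17 in the normal tables. The tumours were nearly equal at 61.3 ± 4.15 CPM (SD, n = 2) against 1.75 CPM. The level was 34.8-fold higher (log2 fold change 5.12, SE 0.75, edgeR adjusted p = 0.0367). Erbb4, the remaining member of the family, had 2 and 0 counts in the tumours and 0 in both normal tables, too few to test. In normal liver Egfr and Erbb3 were thus present with little Erbb2, and in the tumours Erbb2 was present with less Egfr and little Erbb3.

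**Figure D1:**
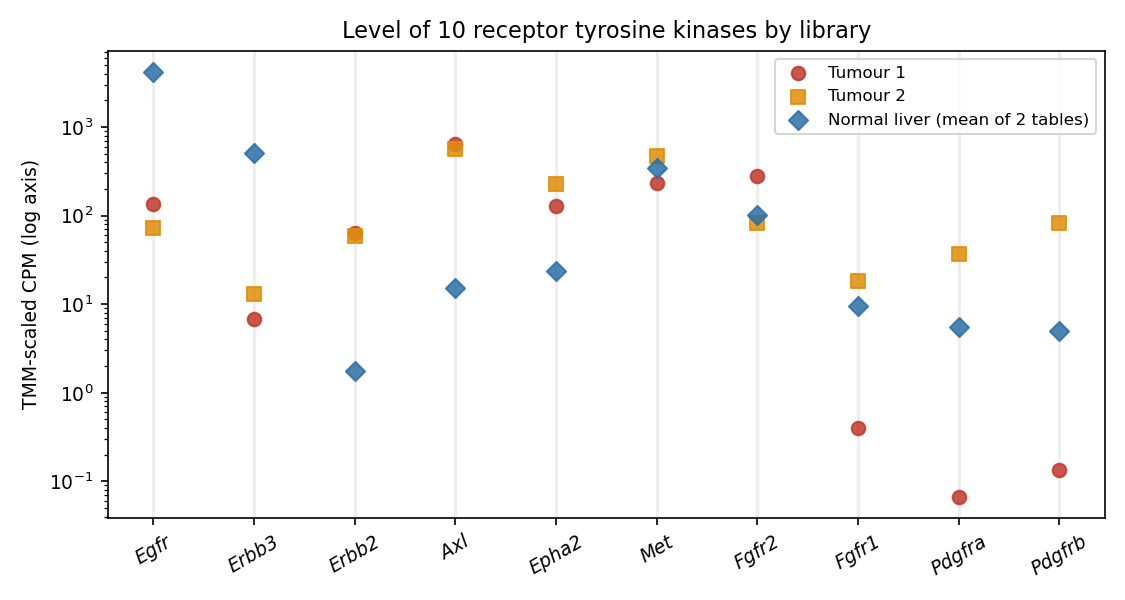
Level of each receptor in tumour 1 (circles), tumour 2 (squares) and the normal library (diamonds), as TMM-scaled CPM on a log axis. Egfr and Erbb3 have their normal value on top, Erbb2, Axl and Epha2 have it at the bottom, and for Met, Fgfr2, Fgfr1, Pdgfra and Pdgfrb the normal value lies between the tumours.

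Axl and Epha2 were the other receptors with both tumours above normal liver. Axl, the receptor of the vitamin K-dependent protein GAS6, had 9566 and 10525 counts in the tumours against 128 and 148 in the normal tables. The tumours stood close together at 605 ± 56.2 CPM (SD, n = 2), and normal liver was at 15.1 CPM. The level was 39.95-fold higher (log2 fold change 5.32, SE 0.83, edgeR adjusted p = 0.0410). Axl and Erbb2 differed little between the tumours, with CPM ratios of tumour 2 to tumour 1 of 0.877 (exact 95% interval 0.852 to 0.901) and 0.909 (0.832 to 0.992). These intervals cover counting error only.

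Epha2, a receptor of ephrin-A ligands on neighbouring cells, had 1881 and 4271 counts in the tumours against 198 and 236 in the normal tables. At 127 and 229 CPM both tumours were above the 23.8 CPM of normal liver. The difference of 7.48-fold did not pass the test (log2 fold change 2.90, SE 0.74, edgeR adjusted p = 0.0973). It passed with DESeq2 (adjusted p = 0.00434), with no filter on low counts (0.0454) and with both normal tables as separate libraries (0.0108), a p that is too small because those tables share counts. The sum of bile duct transcripts was high in the same libraries. The 5 genes summed to 2442 and 2114 CPM in tumours 1 and 2 against 41.0 CPM in normal liver, and Krt7, Krt19 and Spp1 rose, the last with 14.3% of its 31-base stretches shared with other genes. Sox9 did not pass (edgeR adjusted p = 0.257). Epcam had 356 and 4 counts in tumours 1 and 2 against 46 and 48, so it was above normal liver in tumour 1 and below it in tumour 2. The part of these markers in the values of Axl, Erbb2 and Epha2 was not tested.

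**Figure D2:**
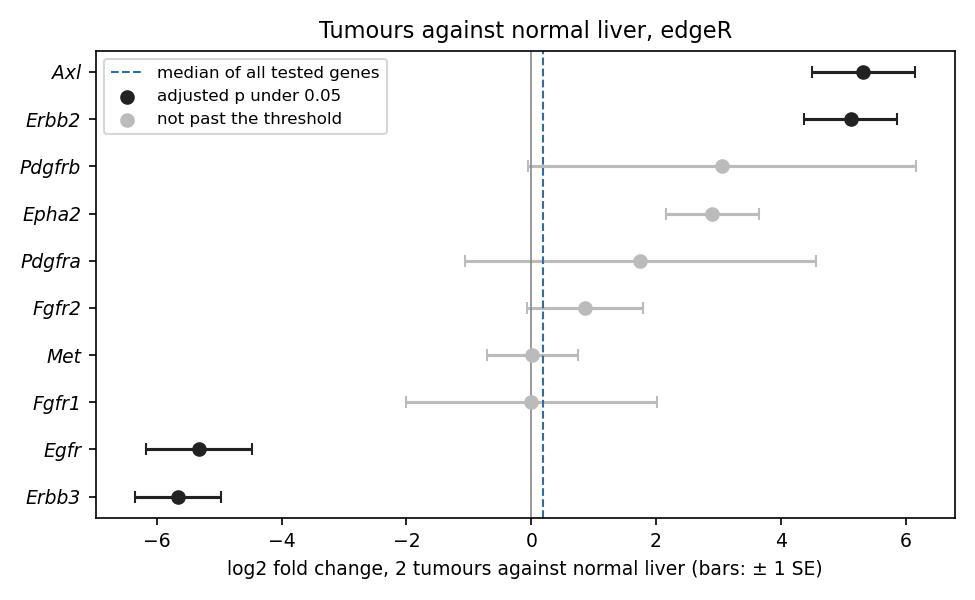
Log2 fold change of each receptor in the 2 tumours against normal liver, with bars of 1 standard error and black points for an edgeR adjusted p under 0.05. Axl and Erbb2 lie above 5, Egfr and Erbb3 below -5, and the widest bars belong to Pdgfrb, Pdgfra and Fgfr1, for which the tumours differ most.

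For the other 5 receptors the tumours lay on opposite sides of normal liver. By TMM-scaled CPM this was so for 5 of the 10 receptors, against 16.8% of all genes tested. Both tumours were above normal liver for 3 receptors and below for 2, against 43.1% and 40.1% of all genes. For Met and Fgfr2 the split depends on the scaling. Both tumours had more raw counts of them than either normal table, although their gene counts in all were lower. Scaled by total count, both tumours would lie above normal liver for Met and Fgfr2, while Pdgfra, Pdgfrb and Fgfr1 would stay split. Means over the tumours describe these 5 receptors poorly, so each tumour is given by itself.

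Pdgfra and Pdgfrb encode the receptors of the platelet-derived growth factors. Pdgfra had 1 count in tumour 1 and 685 in tumour 2, against 46 and 53 in the normal tables. Pdgfrb had 2 counts in tumour 1 and 1527 in tumour 2, against 40 and 50. Tumour 1 was thus near 0 for both, below normal liver, and tumour 2 was 6.71-fold above it for Pdgfra and 16.6-fold above it for Pdgfrb. Between the tumours the CPM ratio was 546 (exact 95% interval 97.6 to 21587) for Pdgfra and 608 (168 to 5027) for Pdgfrb. With 1 library on each side this has no replicate check. Against normal liver neither passed (log2 fold change 1.75, SE 2.81, edgeR adjusted p = 0.713 for Pdgfra and 3.06, SE 3.11, adjusted p = 0.554 for Pdgfrb).

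Fgfr1, a receptor of fibroblast growth factors found in many mesenchymal cells, followed the same pattern at lower levels. It had 6 and 344 counts in tumours 1 and 2, against 77 and 94 in the normal tables. Tumour 2 was 45.7-fold above tumour 1 (exact 95% interval 20.8 to 125) and 1.96-fold above normal liver, and tumour 1 was 23.3-fold below normal liver. The fitted difference over both tumours was 0.00 on the log2 scale (SE 2.01, edgeR adjusted p = 0.999), a mean over opposite values. Over 14468 genes, 2.71% were more than 16-fold higher in tumour 2, the range in which Pdgfra, Pdgfrb and Fgfr1 fall.

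Between the tumours, most stellate cell and fibroblast markers moved with these receptors, but against normal liver most did not. The 10 genes summed to 5.73 CPM in tumour 1, 509 CPM in tumour 2 and 232 CPM in normal liver. Col1a1 had 30 and 3757 counts in tumours 1 and 2, Col3a1 14 and 2190, Acta2 11 and 2245 and Pdpn 3 and 1086. The quiescent stellate cell gene Lrat and the fibroblast gene Lum were at 0 in both tumours, and Reln was at 0 and 3. Of the 10, 7 were over 2-fold higher in tumour 2 and 0 in tumour 1, against 18.8% and 14.9% of all genes tested. Against normal liver, 5 of the 10 were below it in both tumours and 3 above it in both. Only 2 were split between the tumours, as the 3 receptors were. The proliferation genes Mki67 and Top2a were also higher in tumour 2, at 596 and 1009 CPM against 26.8 and 50.7 CPM in tumour 1. The part of these transcripts in the 3 receptors' values was not tested.

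**Figure D3:**
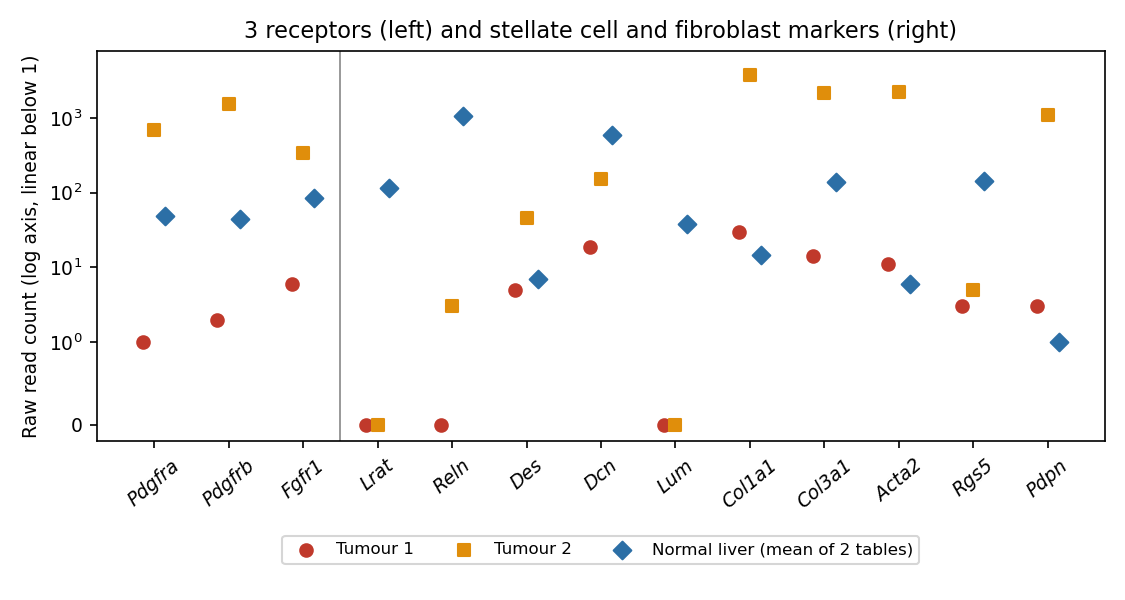
Raw read counts of Pdgfra, Pdgfrb and Fgfr1 (left of the line) and of 10 stellate cell and fibroblast markers (right) in each tumour and in the mean of the normal tables, on an axis that is logarithmic above 1. Tumour 2 is on top for the 3 receptors and for Des, Col1a1, Col3a1, Acta2 and Pdpn, while Lrat, Reln, Dcn, Lum and Rgs5 are highest in normal liver.

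Met and Fgfr2 were well expressed in every library. Met, the receptor of hepatocyte growth factor, had 3493 and 8759 counts in tumours 1 and 2 and 3084 and 3274 in the normal tables. On the CPM scale tumour 1 (235) was below and tumour 2 (470) above normal liver (348). The tumours differed 1.998-fold (exact 95% interval 1.92 to 2.08), and no difference from normal liver was detectable (log2 fold change 0.02, SE 0.72, edgeR adjusted p = 0.990). Among the 10 receptors Met is thus, on the TMM scale, the abundant one of normal liver whose tumour levels stayed within 1.48-fold of it. This depends on the scaling: without scaling beyond library size the log2 fold change was 1.40 (edgeR adjusted p = 0.234).

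Fgfr2, another fibroblast growth factor receptor, with splice forms of epithelial and mesenchymal cells, had 4174 and 1540 counts in the tumours against 875 and 958. It was the receptor over 2-fold higher in tumour 1, at 281 CPM against 82.7 CPM in tumour 2 and 100 CPM in normal liver. The ratio of tumour 1 to tumour 2 was 3.40 (exact 95% interval 3.21 to 3.61). The difference from normal liver did not pass (log2 fold change 0.86, SE 0.93, edgeR adjusted p = 0.578). Counts per gene do not tell the splice forms apart. Between the tumours, 3 of the 10 receptors were past 2-fold higher in tumour 2 and 1 in tumour 1, against 18.8% and 14.9% of all genes tested (33.7% together). Fgfr2 thus moved against Fgfr1 between these libraries.

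**Figure D4:**
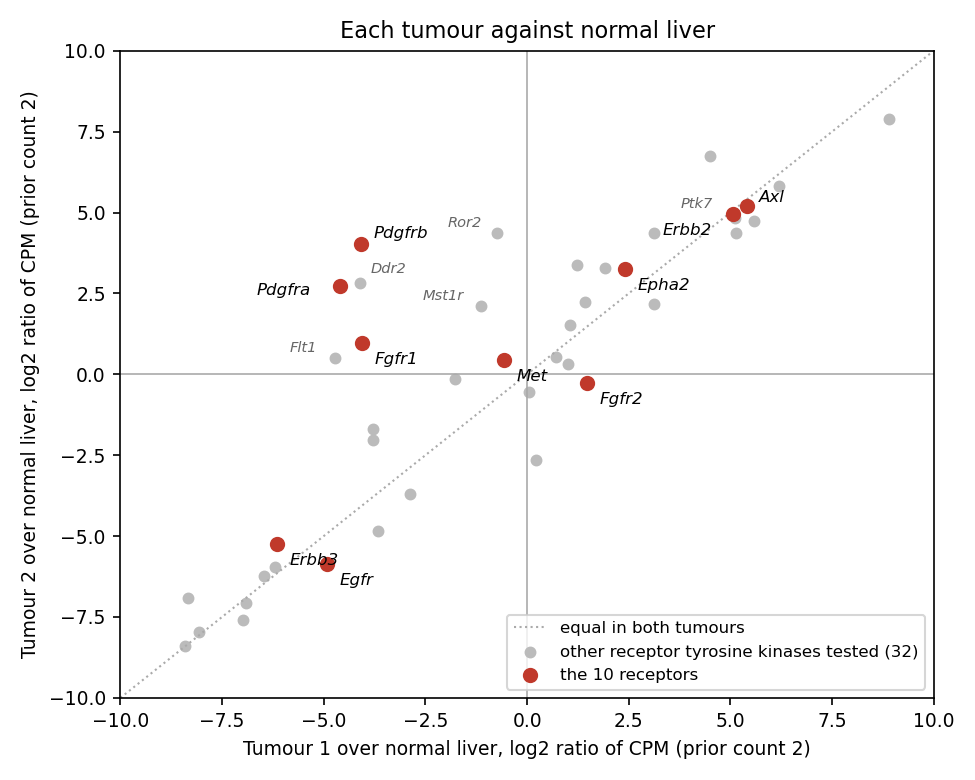
Log2 ratio of CPM to normal liver in tumour 1 (x axis) and tumour 2 (y axis) for the 10 receptors (red) and the 32 other receptor tyrosine kinases tested (grey). Axl, Erbb2, Egfr and Erbb3 lie near the dotted line of equal values, and Pdgfra, Pdgfrb and Fgfr1 lie in the upper left with Ddr2, Flt1, Ror2 and Mst1r, below normal liver in tumour 1 and above it in tumour 2. For Ror2 (0 counts in tumour 1 against 1 and 1 in the normal tables) and Mst1r (9 against 13 and 15) the place below normal liver rests on few counts.

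The normal tables gave the same account of each receptor. The count in the table labelled double heterozygous was 0.800 to 0.942 times that in the table labelled wild type, and 0 of the 10 receptors differed past 2-fold after scaling, against 4.68% of all genes tested. Because the tables share counts, no effect of the genotype can be read from this.

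Levels were compared between receptors per length, as CPM per kilobase of merged exons in the reference annotation. In normal liver Egfr led at 368, followed by Erbb3 at 83.5, Met at 45.4, Fgfr2 at 9.72, Epha2 at 5.09 and Axl at 3.01. The last 4, Fgfr1, Pdgfrb, Pdgfra and Erbb2, were between 0.337 and 0.955, and each overlapped its neighbour within counting error. Egfr made up 71.1% of the summed level of the 10 receptors and Erbb3 16.1%.

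In the tumours Axl led, at 128 and 112 CPM per kilobase, or 53.7% and 41.5% of the summed level of the 10. Met was next at 30.6 and 61.2. In tumour 1 there followed Fgfr2 (27.2) and Epha2 (27.1), which did not differ within counting error, and then Erbb2 (12.3) and Egfr (12.1), which did not either. In tumour 2 Epha2 (49.0) was next and then Pdgfrb (14.96), ahead of Erbb2 (11.2), Fgfr2 (8.003), Egfr (6.33) and Pdgfra (3.67). Erbb3 (2.16) and Fgfr1 (1.87) were last in tumour 2 and overlapped within counting error. With the longest transcript as the length, Fgfr2 moved ahead of Met in tumour 1 (63.5 against 34.6) and ahead of Pdgfrb in tumour 2 (18.7 against 15.1), and Axl kept the first place in both. Egfr therefore went from first place in normal liver to the middle of the order, and Axl from the middle to first.

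**Figure D5:**
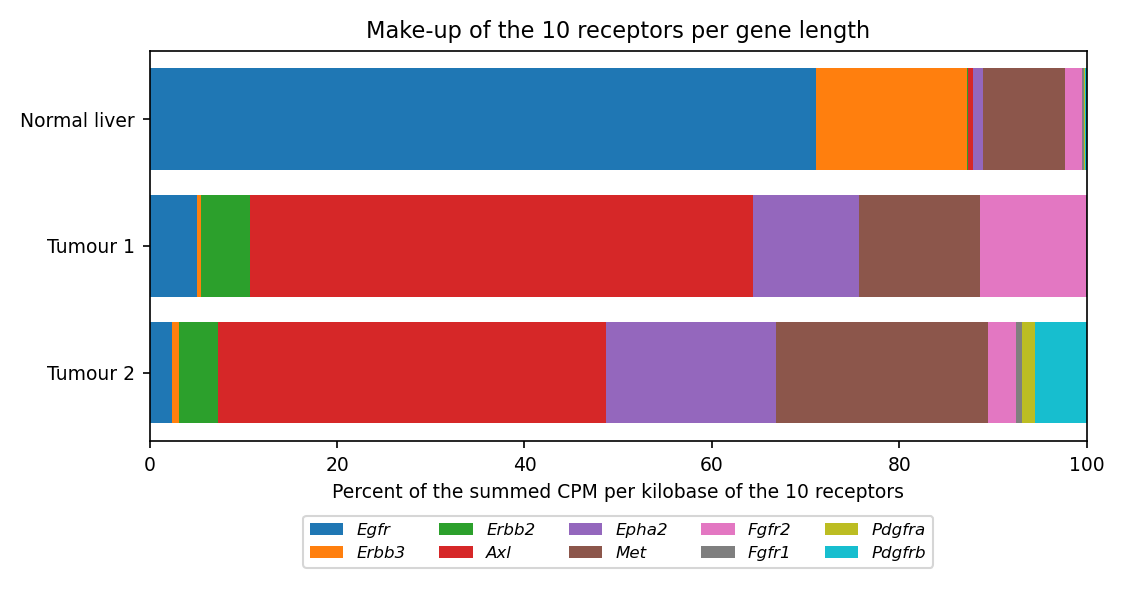
Share of each receptor in the summed CPM per kilobase of the 10 receptors, in normal liver and each tumour. Egfr takes 71.1% of the bar in normal liver, and Axl takes 53.7% in tumour 1 and 41.5% in tumour 2.

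The remaining receptor tyrosine kinases were examined as a list of 48, of which 32 passed the filter on low counts. Of these, 4 were called higher and 6 lower, against 2.23% and 5.19% of all genes tested. The median log2 fold change was 0.67 over the 32 and 1.30 over the 10 receptors, beside 0.19 over all genes tested. That of the 10 lies between Fgfr2 (0.86) and Pdgfra (1.75), for which the tumours were on opposite sides of normal liver. It was 1.88 without tumour 1 and -2.51 without tumour 2, so it describes the 10 receptors poorly. Some of the 32, among them Epha4 and Ptk7, had under 10 counts in each normal table. They passed the filter on low counts through the tumours. Among those called lower, Epha1, Ntrk2, Tie1 and Kdr had under 10 counts in each tumour and passed it through normal liver. The calls and the median of the 32 thus do not describe the whole list. Ephrin receptors went both ways: Epha4 had 3493 and 2075 counts in the tumours against 3 and 3 (log2 fold change 9.004, SE 1.16, edgeR adjusted p = 0.0303), while Epha1 had 2 and 3 counts against 883 and 997 (-9.35, SE 0.71, adjusted p = 0.0182). The collagen receptor Ddr1 rose, at 125 and 94.4 CPM against 1.53 CPM (6.15, SE 0.79, adjusted p = 0.0300). Igf1r, the receptor of insulin-like growth factors, rose to 270 and 150 CPM from 5.48 CPM (5.26, SE 0.86, adjusted p = 0.0449).

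The other gene called higher was Ptk7, a pseudokinase of planar polarity, with 532 and 535 counts against 9 and 8 (log2 fold change 5.19, SE 0.84, edgeR adjusted p = 0.0440). Against the normal table labelled double heterozygous alone it missed the threshold (edgeR adjusted p = 0.0502). Fgfr4, the main hepatocyte receptor for endocrine FGF signals to bile acid synthesis, fell from 133 CPM to 0.943 and 0.859 CPM (log2 fold change -7.20, SE 0.61, edgeR adjusted p = 0.0182). Also lower were Ntrk2 (-9.33), the endothelial receptors Tie1 (-8.58) and Kdr (-8.004) and Mertk (-6.72), a relative of Axl on macrophages that clear dying cells. Without scaling beyond library size Kdr did not pass (edgeR adjusted p = 0.0543). Beside them, 6 endothelial markers summed to 0.606 and 1.02 CPM in the tumours against 182 CPM, with Clec4g at 0 in both. Of 6 macrophage markers summing to 59.8 and 4.56 CPM against 132 CPM, Clec4f and Cd5l were at 0 in both tumours. Emr1 had 93 and 0 counts in tumours 1 and 2 against 111 and 119. The other 3 were split between the tumours: Lyz2 and Marco were above normal liver in tumour 1 and below it in tumour 2, and Cd68 the reverse. The part of these markers in the falls was not tested. The insulin receptor gene Insr, with the highest CPM of the 48 in normal liver, was at 98.3 and 56.0 CPM against 724 CPM and did not pass (-3.23, SE 0.65, adjusted p = 0.0639). Lmtk2 and Ephb4 were at 125 and 81.9 CPM against 121 CPM and at 161 and 98.6 CPM against 79.8 CPM.

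By distance between centred log2 CPM profiles over 3 libraries, Ptk7 was the closest of the 32 to both Erbb2 (distance 0.13) and Axl (0.28). Ddr2, a fibrillar collagen receptor, was closest to Pdgfra (0.39) and Pdgfrb (0.97), with 2 and 675 counts in tumours 1 and 2 against 45 and 47. The VEGF receptor gene Flt1 was closest to Fgfr1 (0.48), with 6 and 391 counts against 128 and 145. Epha2 was nearest to Tyro3 (0.41), Erbb3 to Tek (0.52), Fgfr2 to Ephb4 (0.75), Met to Flt4 (0.86) and Egfr to Csf1r (0.95). Tek had 0 and 1 counts in tumours 1 and 2 against 106 and 116. Its tumour values, and so its distance to Erbb3, rest largely on the prior count of 2 added before the logs. The tumour 1 values of Ddr2, Pdgfra and Pdgfrb, at 2, 1 and 2 counts, rest largely on that prior count as well. With 3 libraries this is a description only.

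Of 37 genes listed as ligands of the 10 receptors 25 were tested, and 5 rose and 2 fell, against 2.23% and 5.19% of all genes tested. Both tumours were above normal liver for 17, against 43.1% of all genes. Of the 25, 13 had under 10 counts in each normal table and passed the filter on low counts through the tumours. Nrg4, called lower, had under 10 counts in each tumour and passed it through normal liver. The numbers of ligands called or above normal liver thus do not describe the whole list. Among EGF family ligands, Areg (amphiregulin) had 466 and 705 counts against 1 and 2 (log2 fold change 7.25, SE 0.95, edgeR adjusted p = 0.0315), and Hbegf 1509 and 1105 against 18 and 19 (5.34, SE 0.85, adjusted p = 0.0430). These are ligands of the receptor gene that fell, Egfr. The neuregulins are ligands of ERBB3, ERBB4 or both. Nrg1 rose, with 155 and 440 counts against 0 and 1 (edgeR adjusted p = 0.0492). Nrg4 fell, with 5 and 2 counts against 251 and 333 (log2 fold change -7.15, SE 1.04, edgeR adjusted p = 0.0366). The Nrg1 call was lost against either normal table alone (edgeR adjusted p = 0.0531 and 0.0552), and that of Nrg4 without scaling beyond library size (0.0633).

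Other ligands were called in both directions. Pdgfb, a ligand of both PDGF receptors, had 613 and 966 counts in the tumours against 4 and 5 (log2 fold change 6.70, SE 0.89, edgeR adjusted p = 0.0317). It was thus high in tumour 1 as well, where Pdgfra and Pdgfrb had 1 and 2 counts. Efna4, an ephrin-A ligand with 165 and 233 counts against 0 and 0, was at least 35.9-fold higher (adjusted p = 0.0473), taking 3 counts of the mean normal library as the floor. Fgf1 fell from 154 CPM to 18.7 and 15.6 CPM (-3.17, SE 0.53, adjusted p = 0.0460). The Efna4 call was lost against the table labelled double heterozygous alone (edgeR adjusted p = 0.0504), and that of Fgf1 under upper quartile scaling (0.0509) and without scaling (0.0961). Gas6, the ligand of Axl, was at 283 and 177 CPM against 41.2 CPM and did not pass (2.48, SE 0.70, adjusted p = 0.115). Efna1, abundant in normal liver at 56.0 CPM, was at 30.9 and 17.4 CPM. Hgf, the ligand of Met, is named after its values were seen, and had 0 and 53 counts in tumours 1 and 2 against 132 and 163 (adjusted p = 0.362).

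Adaptors carry the signal from the receptors into the cell. Of 24 adaptor genes tested, 2 rose and 0 fell, against 2.23% and 5.19% of all genes tested. At an unadjusted edgeR p under 0.05 it was 5 and 3, against 12.5% and 15.5% of all genes. DESeq2 called 3 higher and 2 lower, against 12.5% and 12.4% of all genes it tested. Shc2 had 418 and 588 counts against 3 and 3 (log2 fold change 6.47, SE 0.92, edgeR adjusted p = 0.0357), and Nck2, an adaptor to the actin cytoskeleton, 697 and 725 against 12 and 13 (5.02, SE 0.79, adjusted p = 0.0421). Nck2 shares 12.0% of its 31-base stretches with other genes, so its count is uncertain. The widely used adaptors Crk, Ptpn11, Shc1 and Pik3r1 did not pass, with log2 fold changes of 1.12, 0.69, 1.43 and -0.98. The median of the adaptors was 0.00.

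Among 19 negative regulators 1 rose and 1 fell, against 2.23% and 5.19% of all genes tested. Errfi1, an inhibitor that binds the EGFR and ERBB2 kinases, was at 1919 CPM in normal liver and fell to 73.1 and 84.2 CPM (log2 fold change -4.61, SE 0.67, edgeR adjusted p = 0.0363). Sh3kbp1, which links receptors to the ubiquitin ligase CBL and endocytosis, rose, with 900 and 816 counts against 19 and 26 (4.43, SE 0.77, adjusted p = 0.0492). That call was lost against the normal table labelled double heterozygous alone (edgeR adjusted p = 0.0511), and that of Errfi1 without scaling beyond library size (0.0503). Lrig1, Ptprj and Spred1, the other abundant members, did not pass, with log2 fold changes of 0.05, -0.94 and 1.76.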

How the data were processed

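The 4 deposited tables hold raw read counts per gene symbol, whole numbers with no normalization by the authors. Per the submitters' processing notes, which state no roles, the tools were FastQC, Trimmomatic, TopHat2 2.0.10, HTSeq and DESeq2 and the build was mm9, and the use of strand in counting is not given in the sources used here. Another 5 lines per table name no gene and were left out (alignments outside genes, 13.6% to 31.5% of each table, not unique, 30.7% to 51.5%, and ambiguous, at most 0.107%).

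Tumours 1 and 2 were compared with 1 normal library, the rounded mean of the normal tables, in R 4.3.3 with edgeR 4.0.16 (filterByExpr with minimum count 10, TMM, glmQLFit, glmQLFTest, Benjamini-Hochberg over 14468 genes, threshold 0.05). The fit has 1 residual degree of freedom, and normal liver is assumed to vary like the tumours. SE is the absolute log2 fold change over the square root of F. Ratios of 1 library to another use TMM-scaled CPM with exact 95% intervals, and calls past 2-fold a prior count of 2. The script was tested on simulated counts. DESeq2 1.42.0 and other scalings were alternatives.

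Named genes were the 10 receptors and, per list, up to 8 called genes and the 3 highest in normal liver and in tumours, with the nearest receptor by profile. The members and lists were chosen with earlier results of these data known. Lengths and shared 31-mers come from GENCODE M21 (GRCm38), promoters from RefSeq (GRCm38.p6). Counts of Nck2, Spp1, Csf1r, Shc1, Ptprj and Lyz2, with over 10% shared, are uncertain. No receptor shares more than 5.57% of its 31-mers with another gene, but exons of Erbb2, Pdgfra, Fgfr1 and Fgfr2 overlap other genes by 9 to 456 bases.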

Additional observations from a re-analysis of the deposited data

How the results depend on the processing

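The calls of Axl, Erbb2 and Erbb3 held in every alternative run, and that of Egfr in all but scaling by total count. The spread comes from 2 tumours only. The counts called changed with the tool, the scaling and the treatment of the normal tables, and the cause was not tested. With both normal tables as separate libraries, 10 other receptor tyrosine kinases and 12 ligands were called higher. Adaptors called were 7 higher and 4 lower, and negative regulators 6 higher and 3 lower. That run called 22.6% of all genes tested higher and 23.4% lower. DESeq2 called 7 other receptor tyrosine kinases and 10 ligands higher, 2 adaptors lower, and 3 negative regulators higher and 3 lower. Of all genes it called 12.5% higher and 12.4% lower. Negative regulators called higher were 2 with DESeq2 size factors, upper quartile scaling, no scaling or no low-count filter. In that order, these runs called 2.86%, 2.66%, 4.39% and 4.88% of all genes higher. Scaling by total count moved the median log2 fold change of all genes from 0.19 to 1.56. It called 1 of the 10 receptors, 0 ligands and 0 negative regulators lower, against 3.26% of all genes. Upper quartile scaling moved the median of all genes to 0.42 and called 1 ligand lower, against 4.95% of all genes. Over all genes, 322 were called higher and 751 lower (30.01% of calls higher), against 635 and 472 (57.4%) without scaling, 1733 and 1721 with DESeq2, 903 and 1383 with no filter, and 3058 and 3157 with separate normal tables. With the longest transcript as length, Egfr made up 70.5% of the receptors' level in normal liver.

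When single libraries were left out, counts called ranged from 2 to 7 higher and 2 to 6 lower for the 10 receptors, 3 to 17 and 6 to 15 for the other receptor tyrosine kinases, 3 to 18 and 2 to 5 for ligands, 2 to 10 and 0 to 10 for adaptors, and 0 to 9 and 1 to 6 for negative regulators. The median log2 fold change of the 10 receptors ranged from -2.51 to 1.88. The normal tables share counts, so p-values are too small where they enter as separate libraries, as they also do in the fits without a tumour. In the fits without a tumour the share of all genes called was also far above that in the main fit. Whether the lists rose beyond all genes was not tested. Without scaling beyond library size the log2 fold change was 1.40 for Met, 1.40 for Fgfr1 and 2.21 for Fgfr2. Met reversed against the table labelled double heterozygous (-0.11) and with DESeq2 size factors (-0.056). Fgfr1 reversed against either normal table alone (-0.0099 and -0.012), with DESeq2 size factors (-0.078) and with DESeq2 (-0.022). Without tumour 1 and without tumour 2 the log2 fold change was 0.44 and -0.55 for Met, 2.77 and -6.09 for Pdgfra, 4.06 and -5.05 for Pdgfrb, 0.99 and -4.47 for Fgfr1 and -0.28 and 1.51 for Fgfr2. No paired analysis was possible because the normal libraries carry no replicate number in the labels.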
